A study of Mus musculus with 12 samples.

Results

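Transcripts of 9 genes that the transcription factor p53 is known to switch on were followed in mouse liver: Cdkn1a, Mdm2, Phlda3, Ccng1, Btg2, Trp53inp1, Gdf15, Sesn2 and Zmat3. Every gene probe of the array whose gene name was one of these was taken, which gave 15 probes for the 9 genes out of 41174 gene probes. All 15 passed the filter on dim probes and were among the 21688 probes tested, which stood for 15373 gene names. The livers came from Abcb4(-/-) mice, which lack the canalicular phospholipid transporter and develop a sclerosing bile duct disease, and from Abcb4(+/+) wild-type mice. The knockout mice were fed cholic acid (CA) or, in the other group, ursodeoxycholic acid (UDCA) for 9 weeks, bile acids given, per the series' design text, to increase and to decrease disease activity. UDCA differs from CA by the loss of a hydroxyl group and by the turned orientation of another. Each of the 12 two-colour arrays set an individual knockout liver against wild-type liver, with 6 arrays from 5 livers per diet, 3 with knockout RNA in Cy5 and 3 in Cy3. In each diet group 1 array was a technical dye swap of a liver already used, and the sources used here do not say which. The sources used here do not give strain, sex, age, bile acid doses or the diet of the wild-type mice. No knockout liver without a bile acid diet was analysed here, so a ratio holds the genotype and the diet together.

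The protein p53 is kept scarce in unstressed cells because Mdm2 marks it for degradation and Mdm4 blocks its activity. DNA damage and other stresses free it, and it then binds pairs of short half-sites near its target genes and raises their transcription. Its targets stop the cell cycle (Cdkn1a, Btg2, Ccng1), restrain p53 itself (Mdm2), dampen growth signals (Phlda3, Sesn2), favour cell death or autophagy (Trp53inp1) and include a secreted stress factor (Gdf15) and an RNA-binding protein (Zmat3). Several of these genes also answer to other inputs, such as the integrated stress response for Gdf15 and Sesn2, so their transcripts are no direct measure of p53 activity.

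Binding sites for p53 are shown first because they are what the genes are chosen to share. The 250 bases before a RefSeq transcript start (GRCm38.p6) were at hand for 7 of the 9 genes, in 9 windows, those of Trp53inp1 and Zmat3 not being in the table. An exact match to the 10-base p53 half-site consensus stood in 3 of the 9 windows, against 7.13% of the 32851 windows of all genes. A full site, meaning a pair of half-sites up to 13 bases apart with intact central bases and at most 2 mismatches in all, stood in 1 member window, that of the upstream start of Cdkn1a, against 1.75% of all windows. The consensus equals its own reverse complement, so both strands were covered. The 3 windows with an exact half-site are given 5′ to 3′ on the gene's strand, with exact half-sites in capitals. For Cdkn1a a half-site with 1 mismatch that is part of a full site is in capitals too.
Cdkn1a (chr17:29090729-29090978, plus strand): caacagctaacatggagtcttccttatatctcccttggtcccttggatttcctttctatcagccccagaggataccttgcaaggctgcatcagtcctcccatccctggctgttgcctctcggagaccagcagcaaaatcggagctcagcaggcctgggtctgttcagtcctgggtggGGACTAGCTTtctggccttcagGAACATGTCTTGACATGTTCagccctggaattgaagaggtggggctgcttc
Mdm2 (chr10:117710759-117711008, minus strand): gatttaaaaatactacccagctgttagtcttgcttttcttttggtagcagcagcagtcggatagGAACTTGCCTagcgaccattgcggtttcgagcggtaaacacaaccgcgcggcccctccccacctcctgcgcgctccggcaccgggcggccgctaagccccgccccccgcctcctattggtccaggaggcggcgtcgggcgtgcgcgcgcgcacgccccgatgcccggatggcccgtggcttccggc
Ccng1 (chr11:40755287-40755536, minus strand): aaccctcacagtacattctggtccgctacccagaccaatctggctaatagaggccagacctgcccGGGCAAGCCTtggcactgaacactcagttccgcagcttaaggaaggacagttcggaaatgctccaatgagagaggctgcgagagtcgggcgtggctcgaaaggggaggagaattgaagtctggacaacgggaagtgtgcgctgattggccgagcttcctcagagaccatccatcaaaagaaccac
In the Cdkn1a window the exact half-sites begin 73 and 51 bases before the start, and the latter is followed directly by a half-site with 1 mismatch. The window thus holds 2 full sites that overlap. The pair of exact half-sites has 0 mismatches and the other pair has 1. The exact half-sites of Mdm2 and Ccng1 begin 186 and 185 bases before their starts, and Mdm2 has a half-site with 1 mismatch, left in lower case, that begins 225 bases before. Btg2 had a half-site with 1 mismatch, and the windows of Phlda3, Sesn2 and Gdf15 had none with intact central bases and up to 1 mismatch. This looser match stood in 4 of the 9 member windows and in 34.4% of all windows. TGATGCAA, an ATF4 response motif sought on both strands, was in none of the member windows and in 0.791% of all windows. These are matches of letters in a short window, and sites in introns or farther away were not searched.

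Each value is a log2 ratio within an array, knockout over wild type, so that 1 is a doubling. Estimates carry the standard error (SE) of a limma fit over all 12 arrays with a dye term, and a change was called at a Benjamini-Hochberg adjusted p under 0.05 over all tested probes. A gene with several probes is described by its brightest probe. Nothing in the labels pools animals, so arrays stand for livers apart from the dye swap, which makes p-values slightly too small. The targeted gene Abcb4 was lower with both of its probes in both diet groups (log2 ratios between -2.73 and -0.73), on 5 or 6 of 6 arrays, and the sources used here do not place the probes relative to the deletion. All 10 measured hepatocyte markers were well above background in both channels of all 12 arrays. Between 31.6% and 68.4% of spots per array and colour were well above background. In 2 CA arrays, 3 and 4, the wild-type channel stood apart by its pancreas transcripts, with summed levels of 40102 and 35937 intensity units for 3 markers against 2593 to 5498 on the other 10 arrays. With both arrays left out, an alternative added after these values were seen, 6 members were called higher and 0 lower with CA, the call lost being that of Zmat3, and the counts with UDCA and between the diets were 7 and 0, and 2 and 1, as with all arrays. The arrays read whole liver, in which fewer cells of a type and less RNA per cell cannot be told apart.

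By their brightest probes, 7 members rose in each diet group and 0 fell. With CA, 7 of 9 were called higher and 0 lower, where 37.8% of all 15373 genes were called higher and 22.4% lower. With UDCA, also 7 were called higher and 0 lower, where 17.2% of all genes were called higher and 8.76% lower. The 6 genes called higher with both diets were Cdkn1a, Phlda3, Trp53inp1, Btg2, Gdf15 and Zmat3, while Mdm2 was called with CA alone and Ccng1 with UDCA alone. Sesn2 was called with neither. The median ratio of the members was 0.96 with CA and 0.67 with UDCA, beside medians over all genes of 0.10 and 0.04. With CA, 5 members lay above 0 on all 6 arrays (28.9% of all genes did), and with UDCA 7 did (18.6% of all genes).

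**Figure D1:**
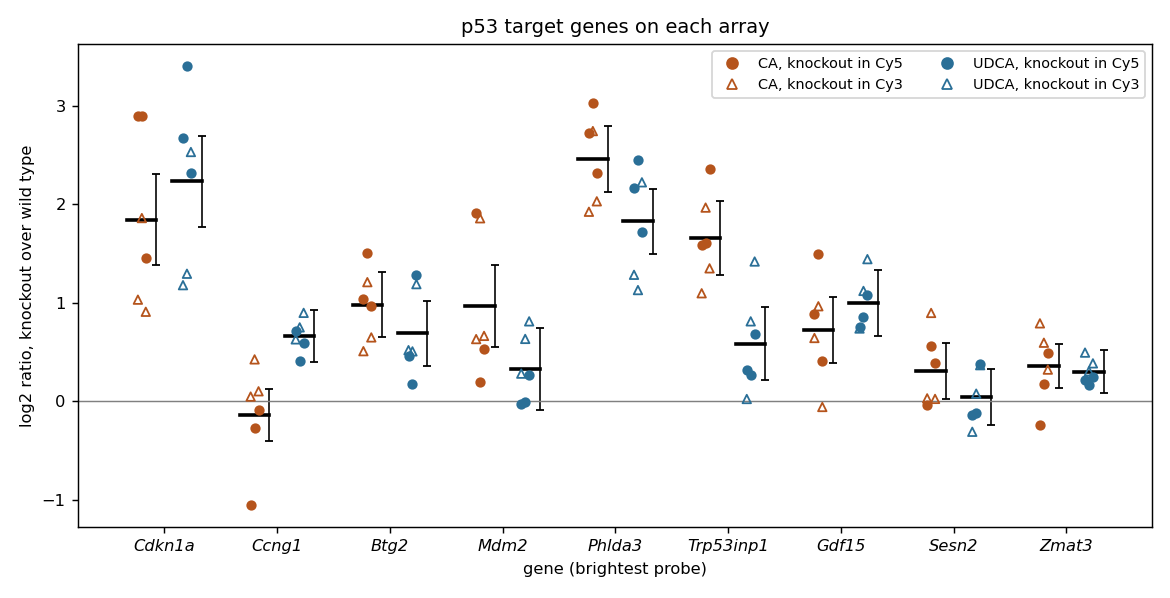
The log2 ratio of knockout over wild type (vertical axis) is plotted for the brightest probe of each of the 9 genes, with 1 point per array, CA on the left and UDCA on the right of each pair. Circles are arrays with the knockout in Cy5, triangles those with it in Cy3, horizontal bars the fitted means and whiskers their 95% intervals. All points of Cdkn1a and Phlda3 lie above 0, whereas those of Ccng1 lie on both sides of 0 with CA. These Ccng1 points are below 0 with the knockout in Cy5 and above 0 with it in Cy3.

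Cdkn1a encodes p21, the inhibitor of cyclin-dependent kinases through which p53 halts the cell cycle. Its probe (A_51_P363947, mm7 chromosome 17, 27293819 to 27293878) is printed in 10 spots per array, whose mean was used. The log2 ratios were 2.90, 2.90, 1.46, 1.03, 1.86 and 0.91 on CA arrays 1 to 6. On UDCA arrays 1 to 6 they were 2.67, 3.40, 2.31, 1.18, 1.29 and 2.53. Every array was above 0 and the diets overlapped widely. With CA the lowest ratios belonged to arrays 6 and 4, both with the knockout in Cy3. With the fitted dye effect removed these arrays read 1.48 and 1.60, and CA array 3 was the lowest at 0.89. The fitted rise was 1.84 ± 0.22 (SE) with CA (3.59-fold, limma adjusted p = 3.51e-06) and 2.23 ± 0.22 with UDCA (4.70-fold, adjusted p = 2.64e-06). Of all genes, 4.27% had a higher ratio than Cdkn1a with CA, and 0.397% with UDCA. The knockout channel was well above background on all 12 arrays, but the wild-type channel was so on only 4 of 6 CA arrays and 3 of 6 UDCA arrays. With the scanner software's processed signals the log2 ratios were larger, at 2.60 with CA and 3.53 with UDCA, so the size of the fold depends on the processing. In the channel values wild-type Cdkn1a ranged from 7.36 to 9.12 on the log2 intensity scale and knockout Cdkn1a from 8.98 to 11.02.

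Phlda3 encodes a small lipid-binding protein that competes with the kinase Akt at the membrane. It had the largest rise of the members with CA. Its log2 ratios were 2.72, 3.03, 2.32, 1.92, 2.74 and 2.03 on CA arrays 1 to 6 (A_51_P329928, mm7 chromosome 1, 135655060 to 135655119). With UDCA they were 2.16, 2.45, 1.72, 1.28, 1.13 and 2.22. All 12 ratios were above 1, and the upper UDCA arrays overlapped the lower CA arrays. The fit gave 2.46 ± 0.16 with CA (5.50-fold, limma adjusted p = 6.58e-09) and 1.83 ± 0.16 with UDCA (3.55-fold, adjusted p = 7.77e-07). Only 1.65% of genes with CA and 0.891% with UDCA had a higher ratio. Both channels were well above background on every array.

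Trp53inp1 encodes a nuclear protein that assists p53 in cell death and takes part in autophagy. The brightest probe (A_51_P175580, mm7 chromosome 4, 11101174 to 11101233) read 1.59, 1.61, 2.35, 1.10, 1.97 and 1.35 on CA arrays 1 to 6. On the UDCA arrays it read 0.32, 0.27, 0.68, 0.02, 0.81 and 1.42. UDCA array 6 was the only UDCA array that reached into the CA range. The rise was 1.66 ± 0.18 with CA (3.16-fold, limma adjusted p = 1.20e-06) and 0.59 ± 0.18 with UDCA (1.50-fold, adjusted p = 0.0240). The UDCA call was lost without UDCA array 3, 5 or 6 in turn (limma adjusted p up to 0.0968), with processed signals (adjusted p = 0.0637) and with slide as a block (adjusted p = 0.145).

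Mdm2, the ubiquitin ligase that closes the negative feedback on p53, gave opposite readings from its 2 probes. The brightest probe (A_52_P469842, mm7 chromosome 10, 117200593 to 117200652) read 1.91, 0.20, 0.53, 0.63, 1.86 and 0.66 on CA arrays 1 to 6. CA arrays 1 and 5 stood far above the other 4. On UDCA arrays it read -0.03, -0.01, 0.27, 0.28, 0.63 and 0.81. The probe was called higher with CA (0.96 ± 0.20, limma adjusted p = 6.01e-04) and not with UDCA (0.33 ± 0.20, adjusted p = 0.260). The other probe (A_51_P201346, mm7 chromosome 10, 117204040 to 117204099), a mean of 10 spots, read -1.15, 0.06, -0.36, -0.58, -0.70 and -0.13 with CA. It was called lower there (-0.48 ± 0.13, adjusted p = 0.00583) and not called with UDCA (0.07 ± 0.13, adjusted p = 0.759). The CA arrays with the highest ratios at the brightest probe, 1 and 5, had the lowest at the other, so these data give no single direction for Mdm2 with CA. As the mean of both probes Mdm2 read 0.24 with CA, and the lower call of the dimmer probe was lost with slide as a block (limma adjusted p = 0.135) and with median centring (adjusted p = 0.419).

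Ccng1, which encodes cyclin G1, a p53 target that recruits a phosphatase to Mdm2, also depended on the probe. The brightest probe (A_51_P161612, mm7 chromosome 11, 40693768 to 40693827) read -1.05, -0.27, -0.09, 0.05, 0.43 and 0.10 on CA arrays 1 to 6. On UDCA arrays it read 0.71, 0.41, 0.59, 0.63, 0.75 and 0.90, where the single CA value of 0.43 on array 5 fell just inside the UDCA range. It was called higher with UDCA (0.67 ± 0.12, limma adjusted p = 0.00105) and not called with CA (-0.14 ± 0.12, adjusted p = 0.354). Without CA array 1 the CA estimate was 0.017. The CA arrays below 0 at this probe had the knockout in Cy5, and those above 0 had it in Cy3. With the fitted dye effect removed, CA arrays 1 to 6 read -0.84, -0.05, 0.12, -0.16, 0.21 and -0.11, and UDCA arrays 0.42 to 0.92. The other probe (A_52_P612803, mm7 chromosome 11, 40691782 to 40691841) was above 0 on all 12 arrays and was called higher with both diets, at 0.38 ± 0.10 with CA (adjusted p = 0.00543) and 0.33 ± 0.10 with UDCA (adjusted p = 0.0342). The CA call of this probe was lost with processed signals (limma adjusted p = 0.0967), with median centring (adjusted p = 0.141) and with slide as a block (adjusted p = 0.0841). Its UDCA call was lost under the same alternatives and without UDCA array 1, 2, 3, 5 or 6 in turn (adjusted p up to 0.122).

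Btg2, an antiproliferative gene that also responds early to growth stimuli, rose with both diets. Its brightest probe (A_52_P31543, mm7 chromosome 1, 133965302 to 133965361) read 1.04, 1.51, 0.96, 0.51, 1.21 and 0.65 with CA. With UDCA it read 0.46, 0.18, 1.28, 0.52, 0.51 and 1.19, so every array was above 0 and the diets overlapped. The estimates were 0.98 ± 0.15 (1.97-fold, limma adjusted p = 6.15e-05) and 0.69 ± 0.15 (1.61-fold, adjusted p = 0.00389). The other 2 probes were called higher with CA (0.68 and 0.53) and were not called with UDCA (0.31, adjusted p = 0.0611, and 0.33, adjusted p = 0.109). Their wild-type channel was well above background on 3 of 6 CA arrays and 2 of 6 UDCA arrays.

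Gdf15, the secreted stress factor, read 0.88, 1.50, 0.41, 0.64, 0.96 and -0.06 on CA arrays (A_52_P532982, mm7 chromosome 8, 69084712 to 69084771). On UDCA arrays it read 0.76, 0.85, 1.08, 0.74, 1.12 and 1.44. CA array 6 was the only array below 0, and the UDCA arrays spread less than the CA arrays (SD 0.27 against 0.53, n = 6 each). The rise was 0.72 ± 0.16 with CA (1.65-fold, limma adjusted p = 0.00112) and 0.998 ± 0.16 with UDCA (2.00-fold, adjusted p = 2.85e-04). In the separate channels both genotypes read higher on the UDCA than on the CA arrays, at 10.55 against 9.58 in knockout and 9.55 against 8.86 in wild type (mean log2 intensities).

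Zmat3, a zinc finger RNA-binding protein, rose least of the called members. It read -0.24, 0.18, 0.49, 0.79, 0.59 and 0.32 with CA and 0.22, 0.16, 0.25, 0.49, 0.31 and 0.39 with UDCA (A_51_P415220, mm7 chromosome 3, 32143676 to 32143735). The estimates were 0.36 ± 0.10 (limma adjusted p = 0.00824) and 0.30 ± 0.10 (adjusted p = 0.0473), and neither call was stable. The CA call was lost in 5 of 27 alternatives, among them processed signals (0.24, limma adjusted p = 0.157), the authors' deposited ratios (0.18, adjusted p = 0.152) and leaving out CA arrays 3 and 4 (0.21, adjusted p = 0.124). The UDCA call was lost in 17 of 27, among them when any of 9 arrays was left out (adjusted p up to 0.123). Sesn2, a sestrin that restrains the growth kinase complex mTORC1, read -0.04, 0.56, 0.39, 0.03, 0.90 and 0.03 with CA and -0.14, -0.12, 0.38, -0.31, 0.08 and 0.37 with UDCA (A_52_P154710, mm7 chromosome 4, 131870492 to 131870551). Neither estimate was called (0.31 ± 0.13, adjusted p = 0.0588, and 0.04 ± 0.13, adjusted p = 0.858), and the CA estimate passed the threshold without CA array 1, 4 or 6 (adjusted p down to 0.0342). Its other probe was not called either (0.08 with CA and -0.21 with UDCA).

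**Figure D2:**
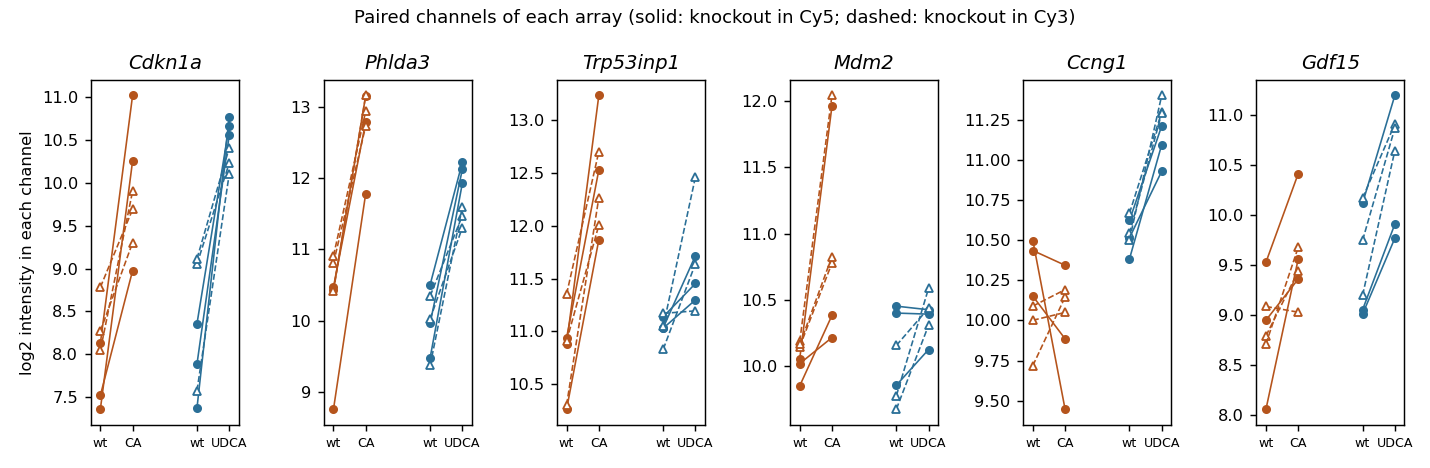
For 6 members the log2 intensity of the wild-type and knockout channels (vertical axis, scaled per gene) is joined by a line for each array, with CA arrays on the left and UDCA arrays on the right of each panel. Levels were made comparable between arrays by quantile scaling of average intensity and are open to dye bias; every line of Phlda3 and Cdkn1a climbs, and the Mdm2 lines of 2 CA arrays climb far more than the others.

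Setting the diets against each other asked whether CA and UDCA, 1 pair of bile acids fed for the same 9 weeks at unstated doses, differed in these transcripts. The difference is indirect, since each diet was read against wild type on its own arrays. Trp53inp1 and Phlda3 were higher with CA and Ccng1 was lower, so 2 members were called higher and 1 lower, where 18.8% of all genes were called higher and 8.88% lower. Trp53inp1 differed by 1.07 (95% interval 0.54 to 1.60, limma adjusted p = 0.00554) and Phlda3 by 0.63 (0.16 to 1.10, adjusted p = 0.0445). Ccng1 differed by -0.80 (-1.18 to -0.43, adjusted p = 0.00392), but its other probe showed 0.06 (-0.26 to 0.37, adjusted p = 0.809). The other Trp53inp1 probe also differed, by 0.58 (0.22 to 0.94, limma adjusted p = 0.0198). Its CA readings ran from 0.42 to 0.89 and its UDCA readings from -0.76 to 0.39, without overlap. CA lay above UDCA without overlap in 7.08% of all genes, each read at its brightest probe. At the brightest probe the diets overlapped for every member.

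The remaining 6 members were not called between the diets. Cdkn1a differed by -0.39 with an interval from -1.04 to 0.26 (limma adjusted p = 0.369). It was called lower with CA under processed signals (-0.93, adjusted p = 0.0173) and with ratios scaled between arrays (-0.92, adjusted p = 0.0186), and read -0.091 without CA arrays 3 and 4 (adjusted p = 0.854). Mdm2 differed by 0.64 (0.05 to 1.23, adjusted p = 0.101), Btg2 by 0.29 (-0.17 to 0.75), Gdf15 by -0.27 (-0.75 to 0.20), Sesn2 by 0.27 (-0.14 to 0.67) and Zmat3 by 0.05 (-0.26 to 0.37). The other Mdm2 probe was called lower with CA than with UDCA (-0.55, -0.94 to -0.15, adjusted p = 0.0416), a call lost in 9 of the 12 settings that left out an array. The call for Phlda3 was lost in 7 of those 12 settings, when CA array 1, 2 or 5 or UDCA array 1, 3, 4 or 5 was left out (adjusted p up to 0.110). It was also lost with processed signals (0.50, adjusted p = 0.130) and with scaled ratios (0.11, adjusted p = 0.729). With median centring in place of loess none of the members was called between the diets.

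Slides held the diets unevenly, with CA arrays 1 to 4 on slides of their own and UDCA array 6 alone on another. Slide 3 held 1 CA and 2 UDCA arrays and slide 4 held 1 CA and 3 UDCA arrays, so within a slide the diets can be set side by side without a test. On slide 3 the CA array exceeded the UDCA mean by 1.67 for Trp53inp1 and by 0.44 for Phlda3, and on slide 4 by 0.84 and 0.65. For Ccng1 the within-slide differences were -0.14 and -0.55, and for Cdkn1a they were -1.18 and -0.69. These differences keep the dye effect. On slide 3 the CA array had the knockout in Cy3 and both UDCA arrays had it in Cy5. On slide 4 only UDCA array 3 had it in Cy5. With the fitted dye effect removed, Cdkn1a on slide 3 read 2.43 with CA, against 2.10 and 2.83 with UDCA. Ccng1 there read 0.21 with CA, against 0.92 and 0.63 with UDCA. Slide was then taken as a fixed block, which compares the diets only on slides 3 and 4. The limma differences were 1.53 for Trp53inp1 (adjusted p = 0.0184), 0.84 for Phlda3 (adjusted p = 0.0354) and -0.47 for Ccng1 (adjusted p = 0.336). The Ccng1 call was thus lost with that fixed block, as was that of the other Trp53inp1 probe (0.37, limma adjusted p = 0.421). With slide as a random block the Ccng1 call was kept.

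**Figure D3:**
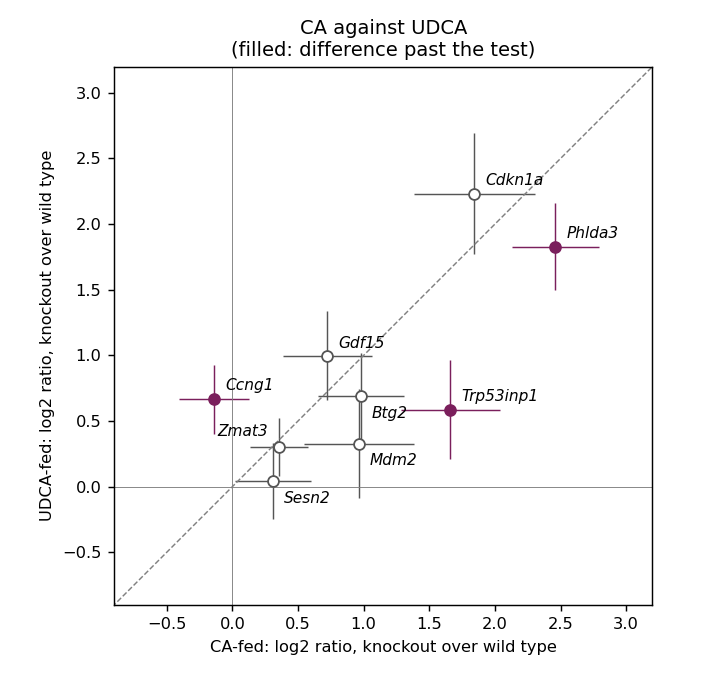
Each of the 9 genes is placed by its fitted log2 ratio of knockout over wild type with CA (horizontal axis) and with UDCA (vertical axis), with 95% intervals as crosses and equality as the dashed line. Trp53inp1 and Phlda3 lie below the line and Ccng1 above it as filled points, the 3 genes whose difference was called; the other 6 are open.

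Of the members, 5 had more than 1 probe, and the probes are shown because the CA readings turned on them. The first 30 of the 60 bases of each probe of Mdm2 and Ccng1 are printed 5′ to 3′ as the scanner files give them.
Mdm2 A_52_P469842: cattcagaaagactgaatcagaacatggat
Mdm2 A_51_P201346: gatggcgtaagtgagcattctggtgattgc
Ccng1 A_51_P161612: tcagaagttgaaatggattgtgtctggacg
Ccng1 A_52_P612803: agaaataaaattgctgagtttatctgcaaa
The dimmer Trp53inp1 probe, A_52_P503387, holds a unit of 26 bases repeated directly, which no other probe on the array contains, with the unit in capitals.
Trp53inp1 A_52_P503387: AGTACTAATACTTACCACAGCAGGCG
Along the gene's strand, the probe nearest the 3′ end was A_52_P469842 for Mdm2, 3447 bases from the other, and A_52_P612803 for Ccng1, 1986 bases from the other. In all 5 genes the probe nearest the 3′ end had the higher CA ratio, by 1.44 for Mdm2, 1.08 for Trp53inp1, 0.52 for Ccng1, 0.45 for Btg2 and 0.23 for Sesn2. With UDCA the same held for 4 of them, by 0.59 for Trp53inp1, 0.36 for Btg2, 0.26 for Mdm2 and 0.26 for Sesn2, whereas Ccng1 differed by -0.34. Across all 4618 genes with at least 2 tested probes placed on 1 strand, the probe nearest the 3′ end had the higher ratio in 68.9% of genes with CA (median difference 0.18) and in 55.1% with UDCA (median difference 0.03). That probe was also the brightest in 70% of these genes. Among the members it was the brightest for Mdm2, Trp53inp1, Btg2 and Sesn2, and not for Ccng1. The choice of the brightest probe thus often took the probe nearest the 3′ end. The median difference lay between 0.12 and 0.28 on each CA array and between -0.02 and 0.11 on each UDCA array. Its part in the member ratios was not tested.

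**Figure D4:**
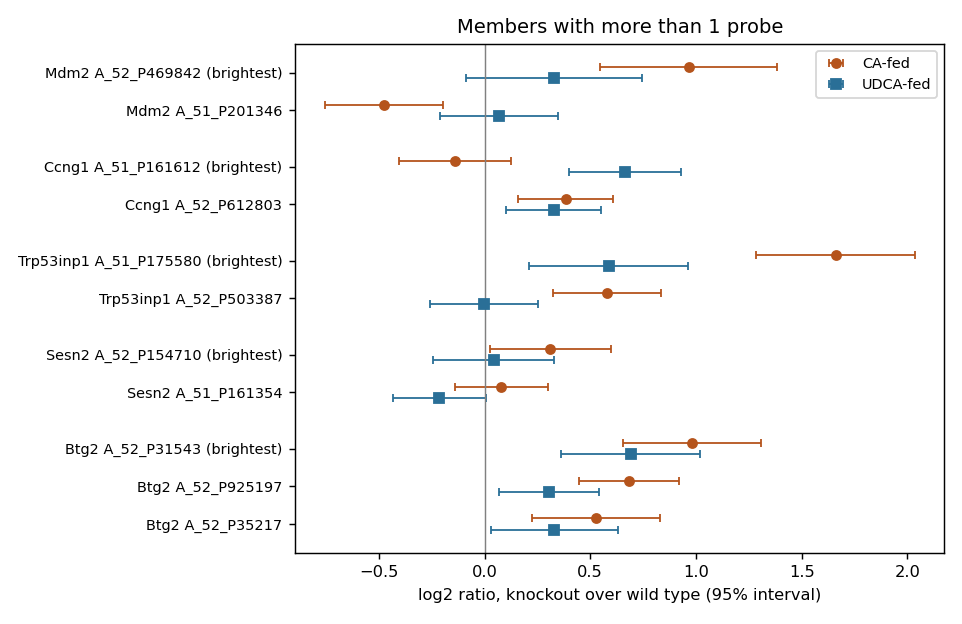
Fitted log2 ratios of knockout over wild type (horizontal axis) are drawn with 95% intervals for each probe (rows) of the 5 genes with more than 1 probe, circles for CA and squares for UDCA. The Mdm2 probes fall on opposite sides of 0 with CA, at 0.96 and -0.48.

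Of 17 measured genes that control p53, 4 were called higher and 1 lower with CA, with a median of 0.11, beside 37.8% and 22.4% of all genes. With UDCA 1 was called in each direction, with a median of 0.01, beside 17.2% and 8.76% of all genes. The probe that stood for Trp53, which encodes p53 itself, read -0.07 ± 0.11 with CA (limma adjusted p = 0.622) and -0.15 ± 0.10 with UDCA (adjusted p = 0.311). The other Trp53 probe was called higher with CA (0.72 ± 0.13, adjusted p = 1.76e-04) and not with UDCA (0.18 ± 0.13, adjusted p = 0.336), so Trp53 too depended on the probe. Mdm4, the p53 inhibitor related to Mdm2, read -0.23 ± 0.11 with CA (adjusted p = 0.0816) and -0.07 ± 0.11 with UDCA (adjusted p = 0.716), and 1 of its 3 other tested probes was called lower with CA (-0.55). With CA the damage kinase genes Chek1 (0.99) and Chek2 (0.37), the damage sensor gene Trp53bp1 (0.79) and the acetyltransferase gene Crebbp (0.69) rose. With UDCA Trp53bp1 rose (0.37) and Usp7, a deubiquitinase of Mdm2 and p53, fell by 0.31. Chek1 and Crebbp were higher with CA than with UDCA (0.63 and 0.58).

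Further p53 targets were counted beside the members. Of 34 measured, 21 were called higher and 6 lower with CA (median 0.40), and 13 were higher and 2 lower with UDCA (median 0.20). Beside these counts, 37.8% of all genes were called higher and 22.4% lower with CA, and 17.2% and 8.76% with UDCA. Bax, a pore-forming death protein, rose with CA (0.59 ± 0.10, limma adjusted p = 1.31e-04) and UDCA (0.54 ± 0.10, adjusted p = 9.83e-04), the difference being 0.05 (-0.25 to 0.35). Pmaip1, which encodes the death-promoting protein Noxa, rose most with CA (2.59 ± 0.24) and rose with UDCA too (0.77 ± 0.24). Other large rises with CA were those of the adenylate kinase gene Ak1 (1.86), the spindle gene Psrc1 (1.72) and the kinase gene Plk2 (1.70). With UDCA Psrc1 (1.08) and Pmaip1 rose, and the growth arrest gene Gadd45a fell by 0.81. Between the diets, 12 were higher and 6 lower with CA, beside 18.8% and 8.88% of all genes. Pmaip1 (1.82), Gadd45a (1.41), Ak1 (1.17) and Plk2 (1.09) led.

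Most cell cycle genes were called higher with CA, and fewer were with UDCA. Among all genes the calls were 37.8% higher and 22.4% lower with CA, and 17.2% and 8.76% with UDCA. Of 21 measured cyclins, cyclin-dependent kinases, their other inhibitors and partners, 17 were called higher and 0 lower with CA (median 0.87), and 10 were higher and 0 lower with UDCA (median 0.27). The cyclin A gene Ccna2 (2.30) and the inhibitor gene Cdkn2b (2.03) led with CA, followed by Cdk6 (1.98) and Ccnd2 (1.84). With UDCA Ccnb2 (1.64), Ccna2 (1.60), Ccnb1 (1.21) and Cdk6 (1.19) rose most. Mki67, a marker of dividing cells, rose to 3.05 ± 0.17 with CA (limma adjusted p = 2.61e-09) and to 2.20 ± 0.17 with UDCA (adjusted p = 4.41e-07) at its brightest probe. Its other probe, A_51_P253808, gave smaller rises of 1.63 ± 0.19 (adjusted p = 3.79e-06) and 0.69 ± 0.19 (adjusted p = 0.0170). Between the diets 5 of the 21 were higher with CA and 0 lower, beside 18.8% and 8.88% of all genes. Ccnd2 (1.57), Cdkn2b (1.36), the replication clamp gene Pcna (0.91) and Cdk6 (0.79) were ahead.

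Genes of other stress programs that share targets with p53 were counted too. The shares of all genes beside these counts are 37.8% higher and 22.4% lower with CA, and 17.2% and 8.76% with UDCA. Of 15 integrated stress response genes, 9 were called higher and 3 lower with CA (median 0.49), and 5 higher and 2 lower with UDCA (median -0.03). The serine synthesis gene Phgdh (2.43), the stress gene Nupr1 (1.80), the mTORC1 inhibitor gene Ddit4 (1.74) and the lipoprotein receptor gene Vldlr (1.46) rose most with CA. The 3 called lower with CA were Chac1 (-0.96), Ddit3 (-0.57) and Atf4 (-0.59), which encodes the transcription factor ATF4 itself. With UDCA Vldlr (1.55) and the transcription factor gene Atf3 (1.19) rose, while the hormone gene Fgf21 (-1.17) and the glutathione-degrading enzyme gene Chac1 (-0.73) fell. Of 18 immediate early genes, which answer growth and stress signals within a short time, 13 were called higher and 1 lower with CA (median 1.15), and 10 higher and 2 lower with UDCA (median 0.69). Egr1 (3.82), Egr2 (3.02), Ier3 (2.45) and Jun (2.17) led with CA, and Nr4a1 (1.93), Egr2 (1.84), Egr1 (1.79) and Jun (1.58) with UDCA.

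**Figure D5:**
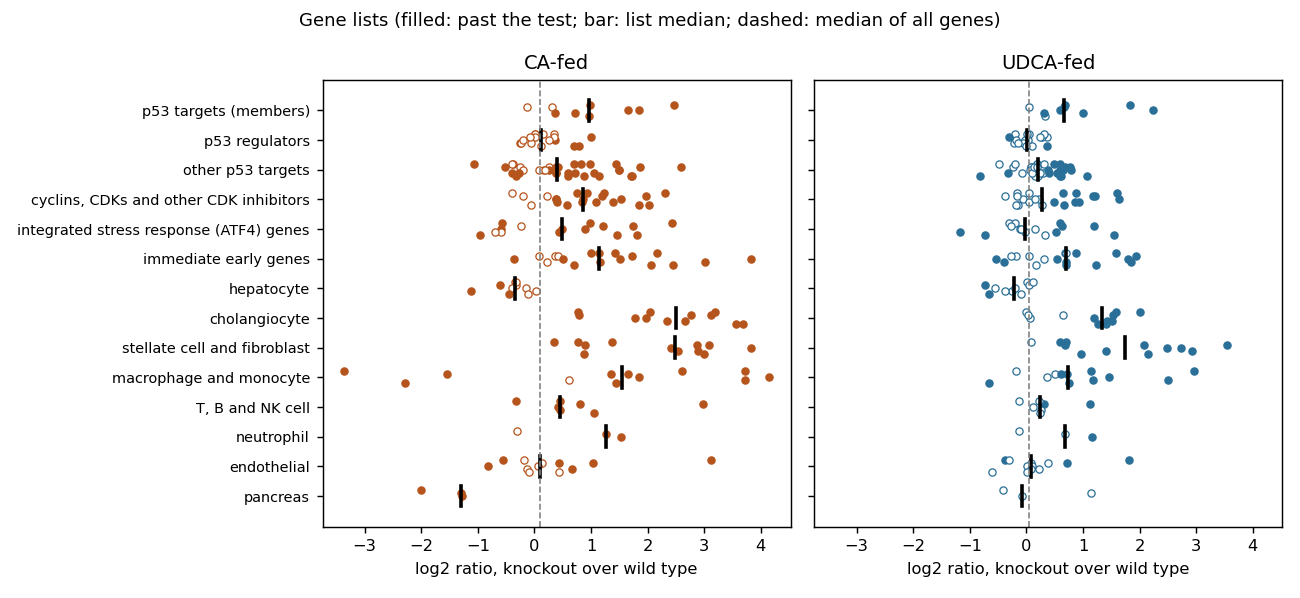
Log2 ratios of knockout over wild type (horizontal axis) are plotted with 1 point per gene for each list (rows), CA in the left panel and UDCA in the right, filled where called. Bars are list medians and the dashed line is the median over all genes; the bars of the bile duct and stellate cell markers lie to the right of that of the 9 members in both panels.

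Markers of other liver cells moved beside the members. Their counts stand beside 37.8% of all genes called higher and 22.4% lower with CA, and 17.2% and 8.76% with UDCA. Between the diets 18.8% of all genes were called higher with CA and 8.88% lower. All 12 cholangiocyte markers were called higher with CA (median 2.50) and 8 of 12 with UDCA (median 1.33), and 10 of them were higher with CA than with UDCA. Their summed level on an array lay between 35874 and 174050 intensity units in CA-fed knockout liver and between 21944 and 41209 in UDCA-fed knockout liver, against 8339 to 19344 in wild type. Of these markers Cftr was well above background in no wild-type channel. All 12 stellate cell and fibroblast markers were called higher with CA (median 2.48) and 11 of 12 with UDCA (median 1.74), with summed levels of 71051 to 185272 and 61727 to 137564 against 16237 to 36538 in wild type. Of 12 macrophage and monocyte markers, 8 were higher and 3 lower with CA, and 8 higher and 1 lower with UDCA, with summed levels of 66773 to 209915 and 33994 to 83279 in knockout and 24853 to 133057 in wild type. Of 7 measured T, B and NK cell markers, CA-fed liver had 6 higher and 1 lower, and UDCA-fed liver had 2 higher. Of 3 neutrophil markers, 2 were higher with CA, 1 was higher with UDCA and 0 were lower. The 12 endothelial markers gave 4 higher and 2 lower with CA and 2 and 1 with UDCA. Hepatocyte markers gave 0 higher and 3 of 10 lower with CA (median -0.34) and 0 and 2 with UDCA (median -0.23), estimates that average over opposite readings of the dyes. The median hepatocyte marker ratio was between 0.86 and 1.90 on the arrays with the knockout in Cy5 and between -2.67 and -0.57 on those with it in Cy3. The 3 measured pancreas markers, a check for tissue of a neighbouring organ, gave 0 higher and 3 lower with CA and were not called with UDCA. Their median ratio was -3.56 and -3.23 on CA arrays 3 and 4, where the wild-type channel was high. The remaining 4 arrays of that diet lay between -0.50 and -0.24. The part of these cell types in the member ratios was not tested.

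Ratios over the 12 arrays were compared among 9973 genes with a RefSeq symbol, after removal of the fitted dye effect. The genes that followed Cdkn1a most closely were Tat (Pearson r = 0.91), Cnbp (0.90), Dbi (0.90), Ces1d (0.89) and Aldh8a1 (0.89). Unlike Cdkn1a, none of them stood high against wild type, with log2 ratios from -0.70 to -0.0012 with CA and from -0.20 to 0.10 with UDCA. The median of the members was followed most closely by Tmem237 (r = 0.95), Dll1 (0.94), Pi16 (0.94), Esm1 (0.94) and Gpr176 (0.92). These had ratios from 0.41 to 1.81 with CA and from 0.18 to 0.89 with UDCA. The correlations describe arrays that share slides and dyes and, for 1 pair in each diet group, a liver. The fit holds 1 dye effect per probe, so dye bias that differs between arrays stays in these ratios. Tat is 1 of the hepatocyte markers, whose median ratio read -2.67 on UDCA array 5 and -0.57 on UDCA array 6, both with the knockout in Cy3. The part of such bias in the correlations was not tested.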

How the data were processed

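Per the file headers, Feature Extraction 9.5.3 gave the unnormalized mean intensity and local background median of each spot in both colours, and a deposited log10 ratio of processed signals that was used as an alternative. The authors' deposited series table holds log2 ratios, whose scale and direction were checked against the scanner ratios on bright spots: the 6 CA columns ran opposite to knockout over wild type (Pearson r from -0.97 to -0.87) and were turned, the UDCA columns did not (0.75 to 0.96), and the sources used here do not say how that table was normalized. The column medians of that deposited log2 table lay between -0.046 and 0.049. Probe coordinates are mm7, per the file headers.

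Intensities were corrected with normexp (offset 50) and loess within arrays (R 4.3.3, limma 3.58.1), with control spots at weight 0. Spots flagged as outliers were set to missing and spots of a probe were averaged. Probes had to be well above background on 5 or more of a group's 6 arrays, in the channel of either genotype. One limma fit held both diets and a dye term (9 residual degrees of freedom). The brightest tested probe stood for a gene, and the fit was tested on simulated data. The members and lists were chosen with earlier results of these data known. Named genes were all members with every probe, up to 4 called genes with the largest change from each other list, Trp53, Mdm4, Bax and Mki67, and the 5 genes most like Cdkn1a or the members' median; some items are not reported here. The integrated stress response genes called lower with CA were named as well. Promoter windows came from RefSeq (GRCm38.p6). Alternatives covered background correction, normalization, filters, dye, slide and replicate blocks, the likeliest dye-swap pair, mean of probes and leaving out each array and, added after seeing the data, CA arrays 3 and 4 together. The likeliest dye-swap pair was the pair of opposite dyes with the highest residual correlation. These were CA arrays 3 and 4 (0.109) and UDCA arrays 3 and 5 (0.0929). Both values are low, so the repeated liver was not identified. The labels do not say that array numbers pair livers across diets. Residuals of arrays with the same number correlated from -0.57 to 0.13. Such arrays share the dye orientation that the fit holds, so these values cannot settle a pairing.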

Additional observations from a re-analysis of the deposited data

Results flagged for a closer look

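The response of 3 members differed between CA and UDCA by the test of the difference itself, 2 higher and 1 lower with CA, where 18.8% and 8.88% of all genes were. Trp53inp1 was higher with CA by 1.07 at its brightest probe and by 0.58 at its other probe. Phlda3 was higher with CA by 0.63, a call lost in 7 of the 12 settings that left out an array. Ccng1 was lower with CA by -0.80 at its brightest probe, a call lost with slide as a fixed block (limma adjusted p = 0.336). Its other probe showed 0.06 and was not called. For Mdm2 the call rested on the dimmer probe, which was lower with CA by -0.55, while the brightest probe read 0.64 in the opposite direction without passing the test. Of 30 sets of 6 ratios (15 probes in 2 diet groups), 0 held an array set apart from the others by Dixon's test, where chance alone would mark about 1 in 20.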

How the results depend on the processing

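The counts of members called against wild type stayed within 1.5 times the main value in every alternative, at 7 to 8 with CA and 5 to 7 with UDCA when 1 array was left out. Cdkn1a, Phlda3, Btg2 and Gdf15 kept their direction and call with both diets in all alternatives that held them; Cdkn1a was not tested under the stricter filter, because its wild-type channel was too often dim. Between the diets the count of members higher with CA was 1 with the scanner software's processed signals, with no filter, with no dye term, with the likeliest dye-swap pair averaged and with ratios scaled between arrays, 0 with median centring, and 1 to 2 when an array was left out. The count lower with CA was 2 with processed signals and with scaled ratios, where Cdkn1a was added, 0 with median centring and 0 with slide as a fixed block. Median centring in place of loess moved the median over all genes to 0.30 with CA and 0.32 with UDCA, and the share of calls that were higher went from 62.8% to 83.9% with CA, from 66.2% to 94.4% with UDCA and from 67.9% to 87% between the diets, with 6 members called higher with each diet. With that centring the calls over all genes fell from 5815 higher and 3449 lower to 3932 and 753 with CA, from 2644 and 1347 to 1547 and 91 with UDCA, and from 2885 and 1365 to 580 and 87 between the diets. The authors' deposited ratios gave 5500 genes higher and 4699 lower with CA and 3177 and 2266 between the diets. With slide as a fixed block the calls between the diets fell to 1192 higher and 457 lower.

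With the replicate block the counts were 7 members higher with CA, 6 with UDCA, and 2 higher and 1 lower between the diets, the lost call being that of Zmat3 with UDCA (adjusted p = 0.0796). Among values that were not called in either setting, some turned sign. Ccng1 with CA was 0.20 with median centring, 0.019 with slide as a fixed block, 0.12 as the mean of its probes and between -0.22 and 0.017 when an array was left out. Sesn2 with UDCA was -0.086 with the slide block, -0.086 as the mean of its probes and between -0.031 and 0.12 when an array was left out. The diet difference of Zmat3 was -0.074 with processed signals, -0.12 with the deposited ratios, -0.00799 with the dye-swap pair averaged, -0.018 with scaled ratios, -0.088 without CA arrays 3 and 4 and between -0.0097 and 0.15 when an array was left out. The dimmer Trp53inp1 probe with UDCA was 4.15e-04 without background subtraction, 0.38 with median centring, 0.010 with the slide block, 0.019 with scaled ratios and between -0.087 and 0.14 when an array was left out. The dimmer Sesn2 probe was -0.033 with CA under processed signals and 0.23 with UDCA under median centring, and the dimmer Mdm2 probe was -0.088 with UDCA under the slide block. The diet difference of the dimmer Ccng1 probe was -0.099 with processed signals, -0.047 with median centring, -0.010 with the deposited ratios, -0.041 with scaled ratios and between -0.031 and 0.11 when an array was left out. The cause of these shifts was not tested. Precision is limited by 6 arrays per diet and by dim wild-type signal for Cdkn1a.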
